A study of Mus musculus with 12 samples.

Results

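The transcriptional response of chow-fed mouse peritoneal macrophages to lipopolysaccharide (LPS, the outer-membrane glycolipid of Gram-negative bacteria) was described from 6 of the 12 RNA-seq samples of the series: 3 at 0 h and 3 after 24 h of LPS, all of female mice on a chow diet and taken by their diet and LPS time in the labels. The other 6 samples are the same times in macrophages of female mice on a high fat diet (HFD), and were used for the shared spread of the model and for a test of the difference. The labels used here give no strain, genotype, age, LPS dose or way of collecting the cells, and name no 24 h group without LPS, so LPS and time in culture cannot be told apart. Whether the 3 samples of a group came from separate animals is not said either, so the p-values cover spread among these samples alone and that spread may be technical.

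LPS is recognised by TLR4 at the macrophage surface. One arm of its signalling, through MyD88, leads to NF-kB and AP-1 and to the classical cytokines, and the other, through TRIF and IRF3, leads to interferon-beta. Interferon then acts back on the cells through STAT factors, which bind interferon-stimulated response elements and gamma-activated sequences in promoters, and by a day of exposure the response holds immediate targets, interferon targets and the loss of many genes of the resting macrophage.

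Libraries held between 11186643 and 14894869 counts with 1 transcript per gene. The 12 macrophage markers summed to 14400 to 15700 CPM, that is counts scaled to a common library total, at 0 h and 10100 to 11400 at 24 h. That fall was carried by Lyz2, which went from 9670, 10200 and 9670 CPM to 3800, 4780 and 4850 CPM. Of the 12, Lyz2 and Vsig4 were lower, the latter not with the lane term (adjusted p = 0.0989), and Adgre1, Cd14, Fcgr1 and Timd4 were higher. Gata6 and Timd4, which mark the large resident macrophages of the cavity, were at most 17.7 CPM and 5.57 CPM in any chow library. Markers of B, T and NK, mast, dendritic and endothelial cells each summed to 28.3 CPM or less in every chow library. Of their tested members only the endothelial Cdh5 was called, higher, from 1.43, 1.38 and 1.16 CPM to 3.28, 3.14 and 3.28 CPM. The endothelial markers summed to 12.8 to 17.8 CPM at 0 h and 20.6 to 28.0 CPM at 24 h. The 10 markers of mesothelial cells and fibroblasts were more abundant, at 2560, 1400 and 809 CPM at 0 h and 3150, 2210 and 1070 CPM at 24 h, mostly collagens. Of the 9 tested, 0 rose and 1 (Upk3b) fell, and the 2 times overlapped, although the sum was higher at 24 h for each of the 3 replicate numbers. Neutrophil markers summed to 8.88 to 10.8 CPM at 0 h and 25.9 to 52.9 CPM at 24 h, nearly all of it S100a8, with Elane at 0. Of the 2 neutrophil markers tested, S100a8 was higher and Cxcr2 lower. The sum of eosinophil markers fell from 23.2 to 26.1 CPM to 6.64 to 10.5 CPM through Siglecf alone. It was lower, and the only 1 of the 3 tested that was called. Whether these moves have a part in the results was not tested. In these bulk samples, fewer cells of a type and less RNA per cell cannot be told apart.

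Of 12638 genes tested, 1728 were higher and 1627 lower at 24 h at an adjusted p under 0.05 (edgeR quasi-likelihood test, Benjamini-Hochberg), which is 26.5% of genes, 13.7% higher and 12.9% lower. The counts of the 2 directions were close, but the sizes were not. Increases had a median log2 fold change of 1.04 and decreases one of -0.86, against 0.0 over all genes tested. Past 2-fold there were 896 increases and 647 decreases, past 4-fold 426 and 161, past 16-fold 137 and 20, and past 32-fold 87 and 7. The 2 times did not overlap for 1698 of the higher and 1614 of the lower genes. These counts cover genes already called, and no share over all genes tested is given, so they are not separate evidence for the calls.

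**Figure D1:**
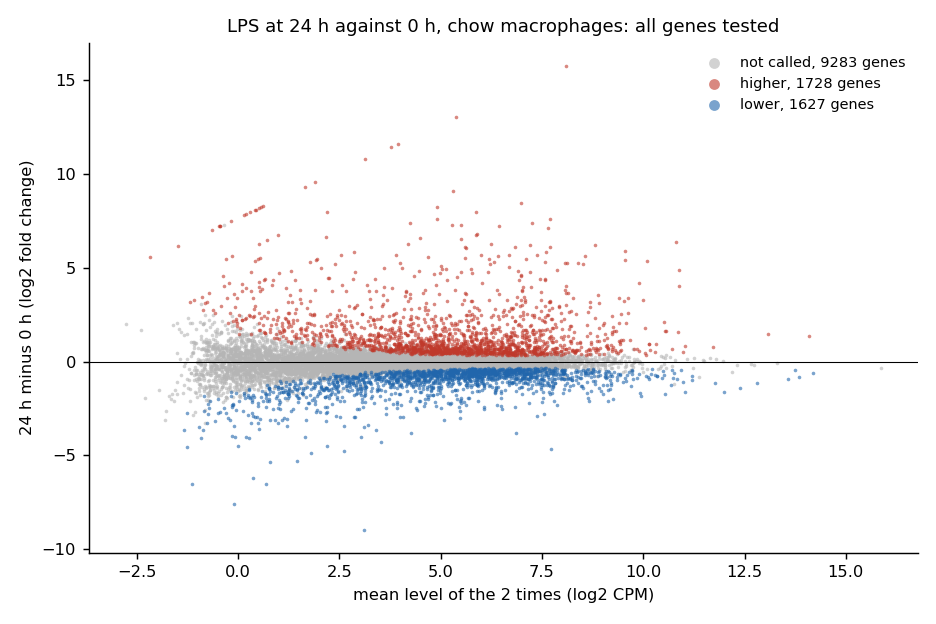
Each point is 1 of the 12638 genes tested, with its mean level over both times on the x axis (log2 CPM) and its 24 h minus 0 h log2 fold change on the y axis, red where higher, blue where lower and grey where not called. Increases extend farther from 0 than decreases, with 87 genes past 32-fold up and 7 past 32-fold down; genes with no count at 1 time are drawn at fitted values, which are not bounds.

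The response also changed what the library was made of. The 896 genes that rose at least 2-fold held 4.57%, 4.83% and 4.72% of counts at 0 h and 17.2%, 17.4% and 20.1% at 24 h. The 647 that fell at least 2-fold went from 9.09%, 9.41% and 9.77% of counts to 3.53%, 3.58% and 3.53%. The 137 genes past 16-fold up went from 0.106%, 0.107% and 0.0886% to 3.05%, 3.13% and 3.96%. These genes were selected on the same libraries, so the shares describe size and test nothing.

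All 3 chow 24 h libraries carry the tag of sequencing lane 8 in their descriptions and the 3 chow 0 h libraries do not. Within chow, the effects of lane and of LPS therefore cannot be told apart. A fit with the lane as a term takes its estimate from 1 tagged HFD library at 24 h and called 874 genes higher and 635 lower. Below, a gene named with no remark kept its call under that fit and under each of the other 15 alternatives that gave it a value, and the count under the lane term follows a list's count where it is smaller by over 1.5 times. The 24 h replicate 3 stood apart from its group: chi-square over degrees of freedom of its gene counts was 64.52 and 72.85 against the other two, which differed by 6.14. Without it, 1625 genes were higher and 1411 lower.

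Outside the well-known cytokines, 15 genes with the largest fold increases were taken by rule, several of them interferon-induced GTPases, and the genes with no count at 0 h are given with them. Serpina3f, a serine protease inhibitor, had no count in any 0 h library and 51.4, 80.9 and 119 CPM at 24 h, at least 1056-fold higher against a floor of 3 counts over the group (adjusted p = 4.45e-06). U90926 was likewise at 0 counts at 0 h and measured 32.7, 24.0 and 36.0 CPM at 24 h, at least 389-fold higher. Tgtp1, an interferon-induced GTPase, went from 0 counts to 11.2, 11.04 and 30.4 CPM, at least 228-fold higher, although reads of its near-identical neighbour Tgtp2 may be shared with it. Gbp5, a guanylate-binding protein, rose from 2.30, 1.95 and 2.08 CPM to 338, 394 and 508 CPM, a log2 fold change of 7.61 (SE 0.33, adjusted p = 8.73e-11). Every 24 h library was above every 0 h library in these genes, which the rule required. The inducible nitric oxide synthase Nos2 and the chemokine Ccl12 were the other 2 genes with no count at 0 h and a mean of at least 10 CPM at 24 h. Nos2 reached 492, 505 and 656 CPM, at least 6883-fold higher, and Ccl12 reached 26.3, 16.9 and 38.5 CPM, at least 349-fold higher. No gene passed the reverse rule of at least 10 CPM at 0 h and no count at 24 h.

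Lcn2, the siderophore-binding lipocalin that withholds iron from bacteria, measured 1.90, 1.38 and 2.08 CPM at 0 h and 266, 228 and 419 CPM at 24 h. Its log2 fold change was 7.40 (SE 0.31, adjusted p = 4.7e-11). Fpr2, a receptor for formylated bacterial peptides, measured 1.19, 1.78 and 0.416 CPM at 0 h and 127, 168 and 223 CPM at 24 h. Its log2 fold change was 7.24 (SE 0.38, adjusted p = 1.43e-09). Tarm1, an activating receptor of myeloid cells, rose by 7.27 on the log2 scale from 0.396, 0.811 and 0.249 CPM to 64.1, 67.5 and 98.6 CPM. For all 3 genes every 24 h library was far above every 0 h library, and replicate 3 was the highest at 24 h. Ms4a4c rose by 7.14, Ifit1bl1 by 7.60, Ifi44 by 6.80, Ifi208 by 6.57 and the chloride channel family member Clic5 by 6.73 on the log2 scale.

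The 15 largest decreases by the same rule belonged to genes of many kinds. Mamdc2 measured 335, 389 and 501 CPM at 0 h and 13.6, 15.8 and 18.4 CPM at 24 h. Its log2 fold change was -4.68 (SE 0.18, adjusted p = 1.27e-11). Cdkn1c, which encodes the CDK inhibitor p57, fell from 195, 193 and 258 CPM to 17.3, 11.4 and 17.4 CPM, a log2 fold change of -3.80 (SE 0.20, adjusted p = 2.61e-10). In both genes every 0 h library was far above every 24 h library. Smpd3, the neutral sphingomyelinase, fell by 4.75 on the log2 scale from 12.8, 11.8 and 10.98 CPM to 0.523, 0.538 and 0.262 CPM. Cd28, best known as the co-stimulatory receptor of T cells, fell from 21.8, 19.95 and 24.7 CPM to 0.821, 0.897 and 1.64 CPM, a log2 fold change of -4.26 (adjusted p = 2.68e-08).

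Slco2b1, an organic anion transporter, measured 18.2, 13.2 and 20.7 CPM at 0 h and had 1 count over the 3 libraries at 24 h. The ratio was 691, with an exact 95% interval for counting error of 124 to 27340. With the lane term its log2 fold change was -7.13 and its adjusted p 0.992. The ABC transporter Abca9 fell by 3.82, the O-glycosylation enzyme Galnt9 by 4.03, the endosomal sodium-proton exchanger Slc9a9 by 3.47 and the Ras activator Rasgrp3 by 3.43 on the log2 scale. The kinase Matk fell by 3.09, the GTPase-activating protein Arhgap19 by 2.98 and the oxysterol receptor Gpr183 by 2.95. Lrrc14b and Bex1 fell by 3.65 and 3.39.

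**Figure D2:**
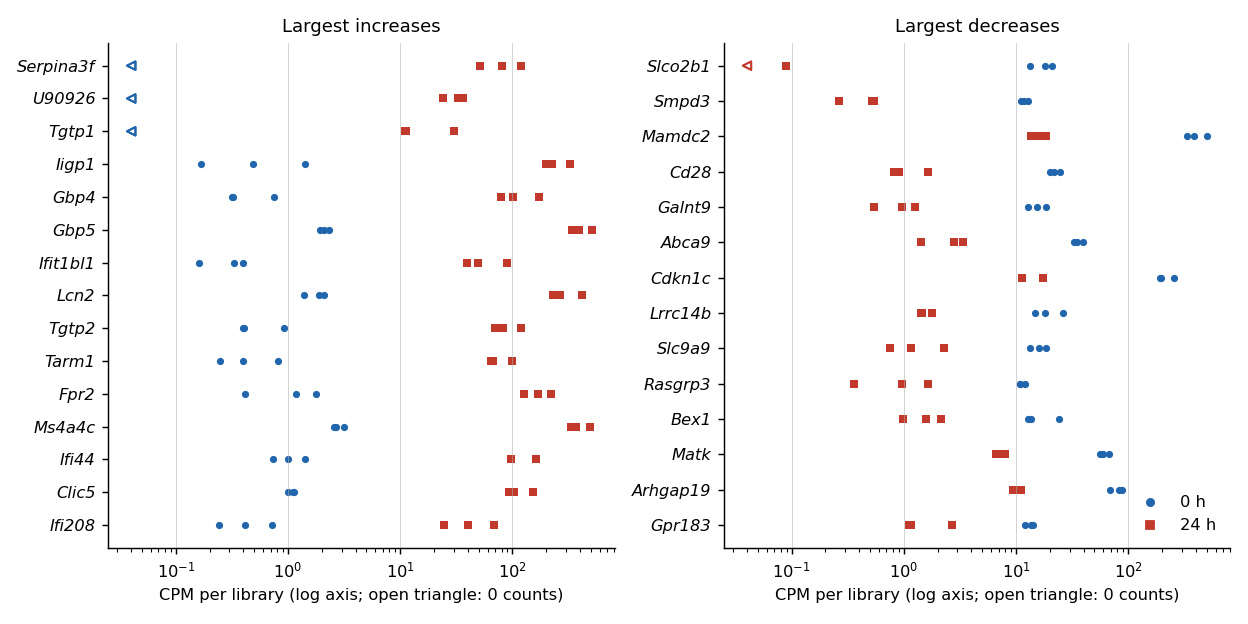
The 15 largest increases (left) and 14 of the 15 largest decreases (right) with a symbol of their own, outside the well-known cytokines, are shown as CPM in each of the 3 libraries at 0 h (blue circles) and 24 h (red squares) on a log axis, with open triangles for libraries at 0 counts. The 2 times do not overlap for any of the 29 genes, which the choice of genes required.

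By number of counts rather than by fold, the response was carried by other genes. Acod1, which makes itaconate from a TCA cycle intermediate, rose from 42.5, 51.5 and 36.3 CPM to 3380, 3348 and 3929 CPM, a log2 fold change of 6.35 (SE 0.21, adjusted p = 5.34e-12). Cfb, factor B of the alternative complement pathway, rose from 120, 145 and 106 CPM to 3317, 3720 and 3898 CPM, a log2 fold change of 4.88. Saa3, an acute-phase apolipoprotein, rose from 239, 264 and 167 CPM to 3450, 3926 and 3355 CPM (adjusted p = 1.76e-08). Each of these 3 genes was close between replicates at 24 h. Rsad2, the antiviral enzyme viperin, rose by 5.33, Ccl5 by 4.20, Ly6e by 2.09 and the class I molecule H2-K1 by 1.59 on the log2 scale. B2m, the light chain of class I molecules, rose from 3610, 4528 and 5712 CPM to 10652, 9309 and 17975 CPM, highest in the 24 h replicate that stood apart. Fth1, the ferritin heavy chain, had the largest gain in CPM of any gene tested, from 9193, 9748 and 10145 CPM to 27277, 26246 and 22524 CPM. Its log2 fold change of 1.39 (adjusted p = 3.39e-05) became 1.09 with the lane term (adjusted p = 0.0599), and for the lysosomal protease Ctsz 0.78 became 0.54 (adjusted p = 0.139).

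The largest losses in CPM among called genes included several lysosomal genes. Gpnmb, a glycoprotein of lysosome-rich macrophages, fell from 16627, 18961 and 20986 CPM to 11037, 10838 and 10003 CPM, a log2 fold change of -0.83 (SE 0.13, adjusted p = 8.15e-05). The prosaposin gene Psap fell from 20773, 22569 and 24481 CPM to 13697, 15752 and 15579 CPM. Lysozyme, Lyz2, fell from 9673, 10157 and 9666 CPM to 3796, 4783 and 4852 CPM, a log2 fold change of -1.14. The 2 times did not overlap for any of these 3 genes, which the choice of genes required. Ctsd, the lysosomal aspartic protease, fell by 0.95 on the log2 scale, Apoe by 1.38, the elastase Mmp12 by 1.61, the lysosomal acid lipase Lipa by 1.73, Lgals3 by 1.15 and the apoptotic-cell bridging protein Mfge8 by 1.61. Ctsb was lower by 0.42 (adjusted p = 0.0222), a call that was lost with the lane term (adjusted p = 0.331) and in 4 of the 6 fits that left out a library.

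Promoter sequence was set beside the response, because the pathways named above act through known elements. Windows of the 250 bases before the transcription start came from RefSeq on GRCm38.p6, and 8014 tested genes had exactly 1. Each motif was searched by its letters on both strands: GAAANNGAA for the interferon-stimulated response element, TTCNNNGAA for the gamma-activated sequence, GGGANNTTC for the kappaB element, TTGCNNAA for C/EBP factors, TGANTCA for AP-1, TATAAA for the TATA box, the letters of the CCAAT box, and GGGCGG for the GC box. Matches of different motifs may overlap. The windows below show stretches around a match, in the orientation of the gene with the match in capitals, for strongly changed genes of those named above, to show what a match looks like. Tgtp1 (chr11:48992275-48992363, minus strand) has the interferon element 77 bases before its start, with a gamma-activated sequence directly upstream at 88 bases. Gbp5 (chr3:142496691-142496779, plus strand) has 2 kappaB matches, the shown one 203 bases before the start. Lcn2 (chr2:32387908-32387989, minus strand) has a C/EBP match 216 bases before its start. Of falling genes, Arhgap19 (chr19:41802152-41802236, minus strand) has 3 CCAAT boxes, of which 2 are shown, and Bex1 (chrX:136215526-136215611, minus strand) has 2 GC boxes.
Tgtp1, interferon-stimulated response element: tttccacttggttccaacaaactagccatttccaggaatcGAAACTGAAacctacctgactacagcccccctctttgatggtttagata
Gbp5, kappaB element: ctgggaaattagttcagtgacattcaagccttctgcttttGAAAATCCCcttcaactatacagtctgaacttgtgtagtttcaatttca
Lcn2, C/EBP element: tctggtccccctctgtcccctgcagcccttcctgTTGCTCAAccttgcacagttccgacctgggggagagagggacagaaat
Arhgap19, CCAAT box: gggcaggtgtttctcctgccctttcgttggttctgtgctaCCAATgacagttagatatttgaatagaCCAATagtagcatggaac
Bex1, GC box: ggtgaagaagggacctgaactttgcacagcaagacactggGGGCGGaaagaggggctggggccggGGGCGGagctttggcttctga

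The shares of several motifs were higher in genes that rose more. The interferon-stimulated response element was in 5.68% of windows of genes not called, 12.3% of higher genes, 16.1% of those past 2-fold and 33.8% of the 80 past 16-fold, against 7.13% of all 32851 promoters in the table. The gamma-activated sequence went from 6.09% of genes not called to 9.35% past 2-fold and 16.2% past 16-fold, with 7.02% of all promoters. For the kappaB element the same 3 shares were 3.07%, 6.17% and 12.5%, with 3.23% of all promoters, and for C/EBP they were 7.28%, 12% and 22.5%, with 9.56% of all. AP-1 elements were in 3.87%, 8.22% and 15%, with 6.75% of all, and the TATA box in 6.21%, 11.2% and 26.2%, with 12.4% of all. The CCAAT box kept nearly 1 level, with 37.1%, 35.3% and 38.8% against 33.8% of all promoters. The GC box was in 61.3% of genes not called, 48.6% past 2-fold and 13.8% past 16-fold, with 32.7% of all.

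Windows of falling genes differed from those of genes not called in some motifs. Of those lower by at least 2-fold, 5.68% held the interferon element, the same share as of genes not called, 2.84% the gamma-activated sequence and 3.1% the kappaB element. AP-1 elements were in 6.46% of them, the TATA box in 9.04% and the PU.1 element in 4.39%, each above its share in genes not called, as it was in genes past 2-fold up. The CLEAR E-box CACGTG, bound by MITF, TFEB and USF factors, was in 11.9% of them and in 7.98% of genes not called, 7.29% of genes past 2-fold up and 6.02% of all promoters. CpG content also followed the response. The ratio of CpG observed to that expected from base composition was under 0.5 in 19.1% of windows of genes not called, 50.5% of those of genes higher by 2-fold, 42.4% lower by 2-fold and 85.0% higher by 16-fold, against 59.5% of all promoters, most of whose genes were not tested here. The GC box, itself rich in CpG, overlaps this measure. Of the 16 motifs searched, others behaved in further ways. AGATAA, the GATA element, was in 5.63% of genes not called and 16.2% past 16-fold up, and CTANNNNTA, the MEF2 element, in 12.9% and 20%, while the median GC content of the windows was 60.0% and 46.0%. The PU.1 element GAGGAAGT was in 2.42% of genes not called, 4.67% past 2-fold up and 1.25% past 16-fold up, and the cyclic AMP element in 2.9%, 2.24% and 2.5%. The part of base composition in these shares was not tested. A match describes letters and no binding, and neighbouring genes of 1 family share promoter sequence, so these shares carry no test.

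**Figure D3:**
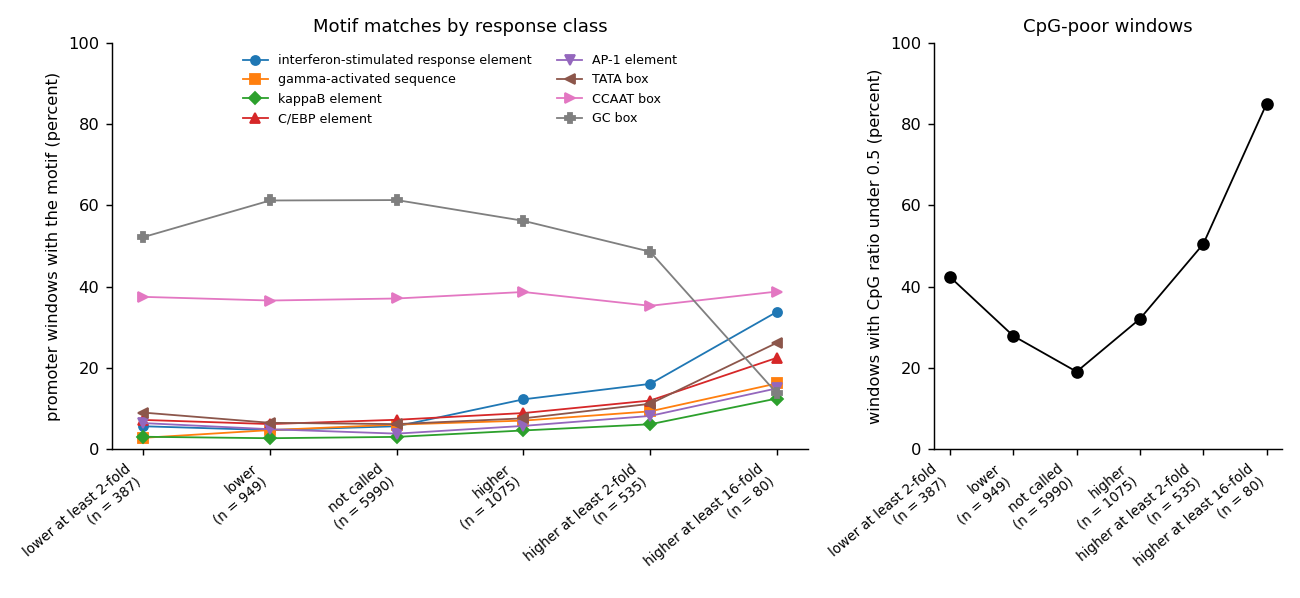
Share of promoter windows with each of 8 motifs (left) and with a CpG observed to expected ratio under 0.5 (right), in percent, for genes grouped by their response, with the number of genes on the x axis. From genes not called to genes past 16-fold up, the interferon-stimulated response element goes from 5.68% to 33.8% of windows, the GC box from 61.3% to 13.8% and CpG-poor windows from 19.1% to 85.0%.

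The programmes that rose most completely were those of cell-autonomous defence against microbes inside the cell. The list of guanylate-binding proteins and immunity-related GTPases, which attack the vacuoles of intracellular pathogens, had 22 of 24 tested members higher and 0 lower. Its median log2 fold change was 5.35, or 5.16 with the 3 members at 0 counts put at their bound, against 0.0 over all genes. Summed over the list, the level was 198, 177 and 195 CPM at 0 h and 4426, 4691 and 6842 CPM at 24 h. Gbp6 rose from 1.90, 2.03 and 1.91 CPM to 130, 158 and 158 CPM, a log2 fold change of 6.25 (SE 0.24, adjusted p = 1.23e-11). Iigp1 rose from 1.43, 0.486 and 0.166 CPM to 226, 199 and 328 CPM. Irgm2, one of the regulatory members of the family, rose from 18.1, 16.1 and 19.9 CPM to 230, 217 and 277 CPM, a smaller log2 fold change of 3.74. Members of these families are similar in sequence, so the split of reads between them is uncertain.

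Sensors and effectors of foreign nucleic acid followed, with 26 of 32 higher, 0 lower and a median of 2.44. Zbp1, which senses Z-form nucleic acid, rose from 20.5, 15.7 and 17.2 CPM to 327, 344 and 431 CPM, a log2 fold change of 4.37 (adjusted p = 1.43e-11). Oasl1 rose by 4.01 and Oas3, which makes the oligoadenylate signal for RNase L, by 3.20 on the log2 scale. Of ISG15 and the enzymes of its conjugation with related ubiquitin ligases, 17 of 27 rose and 1 fell, with a median of 0.93. Isg15 itself rose from 6.90, 6.0003 and 6.07 CPM to 329, 292 and 366 CPM, a log2 fold change of 5.70, its conjugating enzyme Ube2l6 by 2.92 and the ligase Herc6 by 3.42. The member that fell was the Notch-pathway ligase Dtx4 (log2 fold change -0.83).

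Of the ADP-ribosyltransferases, 9 of 16 rose and 2 fell. The members that rose included Parp12, Parp14 and Parp10, which modify proteins with single ADP-ribose units. Parp12 went from 55.6, 59.4 and 63.2 CPM to 333, 329 and 337 CPM, a log2 fold change of 2.49 (SE 0.13), and Parp14 and Parp10 rose by 2.51 and 2.82. Parp1, the enzyme of the DNA damage response, went the other way, from 90.4, 80.6 and 83.7 CPM to 48.9, 49.2 and 51.6 CPM (log2 fold change -0.77, adjusted p = 0.000153). Parp2, the other called lower, lost its call under 7 of the 16 alternatives, among them the lane term (adjusted p = 0.586).

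**Figure D4:**
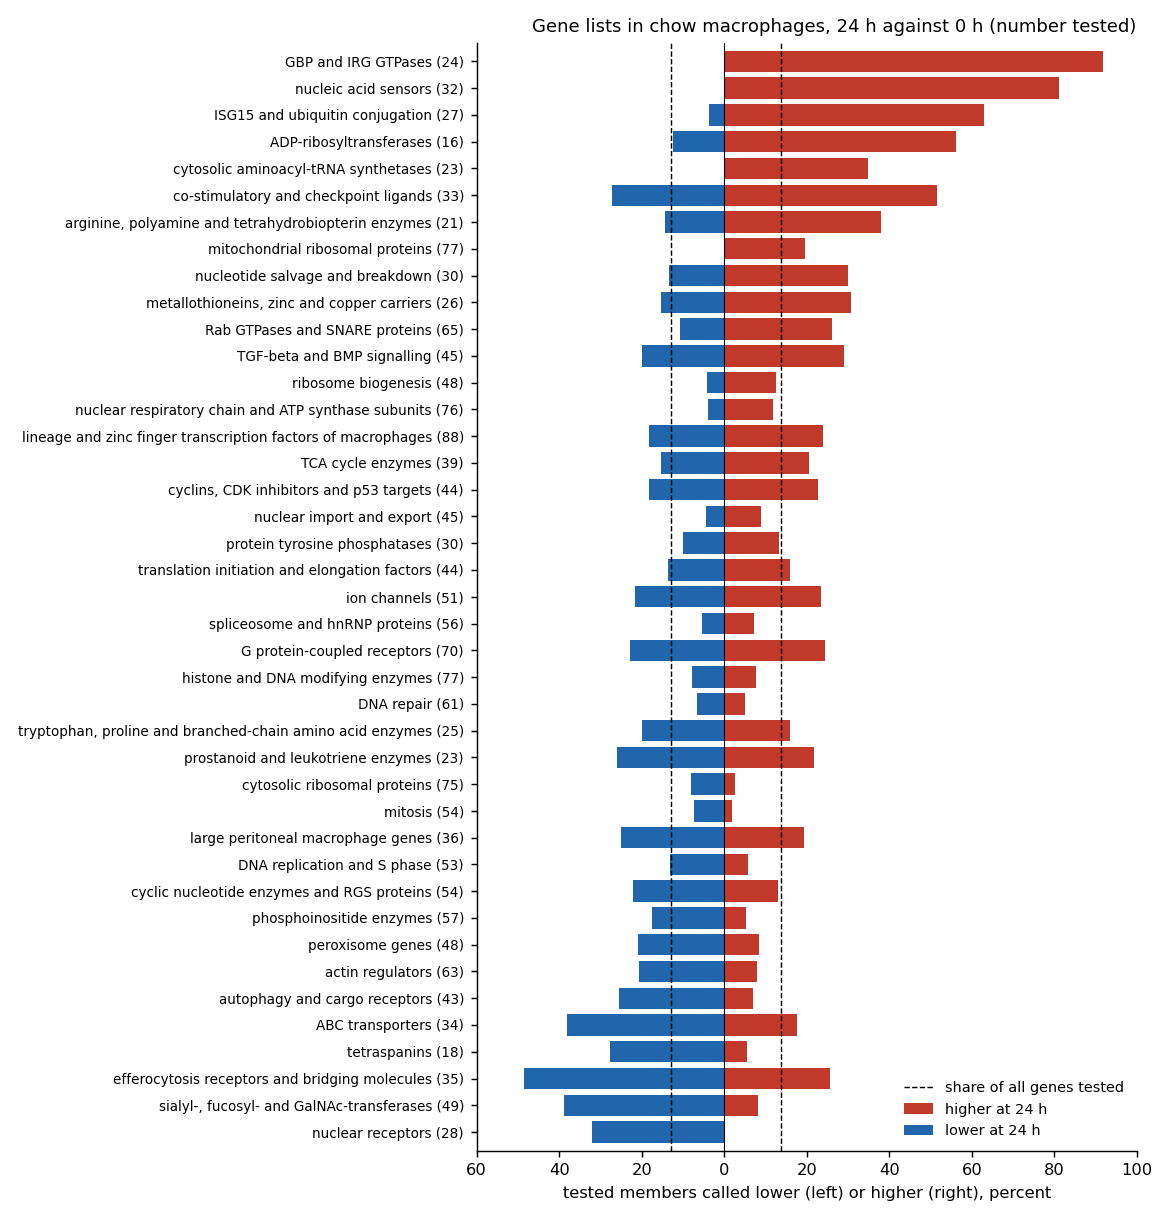
For each of 41 gene lists, with its number of tested members in parentheses, bars give the percent of tested members called higher (red, right) and lower (blue, left), and dashed lines the 13.7% and 12.9% of all genes tested. Guanylate-binding proteins and immunity-related GTPases reach 91.7% higher, and receptors and bridging molecules for the uptake of dying cells reach 48.6% lower.

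Ligands by which macrophages address lymphocytes moved both ways, with 17 of 33 higher and 9 lower (3 with the lane term). Cd274, the checkpoint ligand PD-L1, rose from 116, 150 and 156 CPM to 1253, 1237 and 1848 CPM, a log2 fold change of 3.36 (SE 0.20, adjusted p = 1.43e-09). Cd86, a co-stimulatory ligand, rose from 9.75, 10.5 and 9.65 CPM to 63.3, 79.4 and 105 CPM, and Cd40 rose by 3.58 on the log2 scale. Vsir, which encodes the inhibitory molecule VISTA, fell from 624, 606 and 660 CPM to 211, 217 and 203 CPM, a log2 fold change of -1.58 (SE 0.14, adjusted p = 1.78e-07). So 2 checkpoint genes, Cd274 and Vsir, went in opposite directions, and in each the 2 times were far apart. Cd83 was lower by 1.36 on the log2 scale, with an adjusted p of 0.0557 with the lane term.

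Genes of arginine, polyamine and tetrahydrobiopterin metabolism had calls in both directions. In the list of arginine, polyamine and tetrahydrobiopterin enzymes, 8 of 21 rose and 3 fell (1 with the lane term), with a median of 0.12. Ass1, which recycles citrulline toward arginine, rose from 8.01, 10.7 and 13.1 CPM to 95.7, 102 and 97.9 CPM, a log2 fold change of 3.22. Gch1, the first enzyme of tetrahydrobiopterin synthesis and so of the Nos2 cofactor, rose from 19.2, 24.8 and 25.1 CPM to 59.9, 64.9 and 76.6 CPM. Pts, a later enzyme of the same pathway, was lower by 0.92 on the log2 scale (adjusted p = 0.00552, and 0.103 with the lane term). Among enzymes of tryptophan, proline and branched-chain amino acids, 4 of 25 rose (1 with the lane term) and 5 fell (3). Of nucleotide salvage and breakdown genes, 9 of 30 rose and 4 fell (0 with the lane term). Cmpk2, a mitochondrial nucleotide kinase, rose by 5.25, uridine phosphorylase Upp1 by 4.78 and purine nucleoside phosphorylase Pnp by 2.73 on the log2 scale.

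The prostanoid and leukotriene enzymes had calls in both directions, with 5 of 23 higher and 6 lower and a median of -0.40. Ptges, the inducible prostaglandin E synthase, rose from 11.3, 8.27 and 8.98 CPM to 371, 433 and 319 CPM, a log2 fold change of 5.30 (SE 0.21, adjusted p = 1.43e-11). Ptgs2, the inducible cyclooxygenase, rose from 1.27, 1.70 and 1.91 CPM to 29.4, 39.8 and 46.9 CPM. Hpgds, the prostaglandin D synthase of haematopoietic cells, fell from 107, 118 and 116 CPM to 20.2, 17.7 and 22.3 CPM, a log2 fold change of -2.50 (SE 0.24, adjusted p = 5.5e-07). The constitutive cyclooxygenase Ptgs1 fell by 1.24 on the log2 scale. Thus the inducible cyclooxygenase and E synthase were up, and the constitutive cyclooxygenase and D synthase down, without overlap between the 3 libraries of each time. The lysosomal phospholipase Pla2g15 fell by 1.55 and the prostaglandin reductase Ptgr1 rose by 1.39.

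Uptake of dying cells was the list with the largest share of falling members, 17 of 35 (10 with the lane term), with 9 higher and a median of -0.61. Cd300lb and Cd300a, receptors for phospholipids on dying cells, fell from 272, 290 and 310 CPM to 81.2, 73.1 and 71.3 CPM and from 231, 232 and 247 CPM to 48.8, 62.5 and 44.1 CPM. The phagocytic integrin subunit Itgb3 fell by 2.35 on the log2 scale. Another member of their family, Cd300lf, rose from 98.9, 105 and 103 CPM to 386, 337 and 362 CPM, a log2 fold change of 1.82. The scavenger receptor Scarf1 rose by 2.16. The bridging protein thrombospondin 1, Thbs1, rose from 230, 252 and 196 CPM to 1279, 1447 and 1339 CPM.

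Several further lists had a larger share of members called lower than genes in general. The list of sialyl-, fucosyl- and GalNAc-transferases with related glycan enzymes had 19 of 49 lower (8 with the lane term) and 4 higher. In it the mannosidase Man2a2 had a log2 fold change of -2.37 and the sialyltransferase St6gal1 one of -1.65. St6gal1 went from 116, 117 and 135 CPM to 44.6, 38.8 and 33.5 CPM, while St3gal5, which makes the ganglioside GM3, rose by 1.05. ABC transporters had 13 of 34 lower (2 with the lane term) and 6 higher, the latter led by the peptide transporters Tap1 and Tap2. Nuclear receptors had 9 of 28 lower (4 with the lane term) and 0 higher. The lipid-sensing receptor Pparg fell from 71.1, 72.2 and 82.4 CPM to 13.7, 13.7 and 20.8 CPM, a log2 fold change of -2.22 (SE 0.17, adjusted p = 3.63e-08), and the clock repressor Nr1d2 fell by 1.98. Tetraspanins had 5 of 18 lower (3 with the lane term) and 1 higher, with Tspan14 at -1.51 and Tspan5 at -0.76.

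Regulators of actin were called lower more often than higher, and Rab and SNARE genes the reverse. Arhgap25, a GTPase-activating protein of leukocytes, fell from 347, 414 and 429 CPM to 131, 124 and 125 CPM, a log2 fold change of -1.65 (SE 0.13, adjusted p = 3.82e-08), and Arhgap18 fell by 2.03. By symbol alone, Arhgap genes had the highest falling share of the families with at least 15 tested members, 14 of 30, with 2 higher. Of all genes tested, 12.9% were lower and 13.7% higher. Actin regulators had 13 of 63 lower (4 with the lane term) and 5 higher (3), with the actin crosslinker Flna at a log2 fold change of -0.94, the motor Myo1e at -1.15 and Marcksl1 at 2.42. Rab GTPases and SNARE proteins had 17 of 65 higher (8 with the lane term) and 7 lower (1), with Rab32 rising from 48.8, 52.0 and 48.7 CPM to 164, 189 and 236 CPM. Stx11, a SNARE of cytotoxic secretion, rose by 1.32.

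Autophagy genes had 11 of 43 lower (3 with the lane term) and 3 higher (1). Tfeb, the transcription factor of lysosome biogenesis, fell from 69.0, 72.9 and 72.9 CPM to 30.5, 34.0 and 20.5 CPM, a log2 fold change of -1.34 (SE 0.19, adjusted p = 3.25e-05). The mitophagy receptor Bnip3 rose by 1.67 and the cargo receptor Calcoco1 fell by 1.16. Peroxisome genes had 10 of 48 lower (4 with the lane term) and 4 higher (1). There the antioxidant peroxiredoxin Prdx5 rose from 164, 170 and 155 CPM to 623, 715 and 542 CPM, and Idh1, the cytosolic isocitrate dehydrogenase, fell from 289, 306 and 339 CPM to 116, 136 and 134 CPM. Phosphoinositide enzymes had 10 of 57 lower (3 with the lane term) and 3 higher, with Inpp5b at 1.28 and the phospholipase Plcb2 at -0.94.

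Receptors, channels and transcription factors had called members in both directions. Of G protein-coupled receptors, 17 of 70 rose (9 with the lane term) and 16 fell. Beside Fpr2, its relative Fpr1 rose from 1.11, 2.59 and 0.416 CPM to 70.7, 89.2 and 127 CPM, and Hcar2, the receptor for niacin and ketone bodies, rose from 0.951, 0.324 and 0.0832 CPM to 27.4, 42.1 and 39.3 CPM. The adhesion receptor Adgre5 fell from 526, 612 and 641 CPM to 196, 193 and 174 CPM, the decoy complement receptor C5ar2 by 2.53 and the cannabinoid receptor Cnr2 by 2.07 on the log2 scale. Of cyclic nucleotide enzymes and RGS proteins, 7 of 54 rose and 12 fell (7 with the lane term), with the phosphodiesterase Pde4b at 2.29 and the G protein regulator Rgs10 at -1.94. Of ion channels, 12 of 51 rose (7 with the lane term) and 11 fell (6). The potassium channel Kcna3 rose from 2.46, 2.19 and 2.99 CPM to 22.7, 23.4 and 17.9 CPM while Kcnj2 fell from 64.8, 61.8 and 74.8 CPM to 18.7, 14.7 and 17.4 CPM, so that an outward and an inward rectifier moved apart.

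Of lineage and zinc finger transcription factors, 21 of 88 rose (9 with the lane term) and 16 fell (6). Batf2 rose from 3.80, 3.16 and 2.74 CPM to 79.2, 80.7 and 103 CPM, a log2 fold change of 4.76 (SE 0.20, adjusted p = 3.43e-11), and the transcription cofactor Lmo4 rose by 2.40. The haem-regulated repressor Bach1 fell by 1.11 and the homeobox factor Hhex by 1.09. In TGF-beta and BMP signalling, 13 of 45 rose (4 with the lane term) and 9 fell. Inhba, the subunit of activin A, rose from 4.52, 8.92 and 4.57 CPM to 410, 410 and 415 CPM, a log2 fold change of 6.10 (SE 0.45, adjusted p = 2.02e-07), whereas Bmp2 fell by 1.55 and the receptor Tgfbr1 by 1.12. Of metallothioneins and carriers of zinc and copper, 8 of 26 rose (4 with the lane term) and 4 fell (2), with the copper importer Slc31a1 at 1.59 and the zinc importer Slc39a10 at -1.30. Genes of large peritoneal macrophages had 7 of 36 higher and 9 lower (2 with the lane term), with Serpinb2 at 4.81, the laminin-binding integrin Itga6 at -2.40 and Cd93 at -2.10.

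Genes of growth and of the basic cell machinery were called less often than, or about as often as, genes in general. Cytosolic ribosomal proteins had 2 of 75 higher and 6 lower, spliceosome and hnRNP proteins 4 of 56 higher and 3 lower, and nuclear import and export genes 4 of 45 higher and 2 lower. With the lane term these counts were 0 and 9, 0 and 0, and 0 and 0. Summed over the cytosolic ribosomal proteins, the level was 6012, 5862 and 5996 CPM at 0 h and 5231, 5466 and 5294 CPM at 24 h. Their mean at 24 h was above that at 0 h for 27 of the 75, and the median log2 fold change was -0.15. Ribosome biogenesis had 6 of 48 higher and 2 lower (0 and 0 with the lane term), translation factors 7 of 44 higher and 6 lower (2 and 2), and protein tyrosine phosphatases 4 of 30 higher and 3 lower (1 and 1). DNA repair had 3 of 61 higher and 4 lower (2 and 2), DNA replication 3 of 53 and 7 (2 and 1), and mitosis 1 of 54 and 4 (1 and 0). The 3 proliferation markers summed to 31.5 to 45.9 CPM at 0 h and 36.4 to 41.1 CPM at 24 h, with overlap and 0 called. Cyclins, CDK inhibitors and p53 targets had more calls, 10 of 44 higher and 8 lower (8 and 3), and here Cdkn1a, which encodes p21, rose from 75.8, 77.3 and 101 CPM to 271, 269 and 286 CPM, against the fall of Cdkn1c given above.

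Among histone and DNA modifying enzymes, 6 of 77 rose and 6 fell (3 and 1 with the lane term), below the shares of all genes. Dnmt3a, the de novo DNA methyltransferase, was the exception in size. It fell from 897, 881 and 951 CPM to 219, 204 and 215 CPM, a log2 fold change of -2.10 (SE 0.12, adjusted p = 7.24e-10), with no 24 h library above 219 CPM. The H3K9 methyltransferase family member Setdb2 rose by 1.44 and the acetyltransferase Kat2b by 0.73.

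Mitochondrial and tRNA-charging genes had small changes, with fewer calls under the lane term. Of mitochondrial ribosomal proteins, 15 of 77 rose and 0 fell, with a median of 0.25, and the mean at 24 h was above that at 0 h for 60 of the 77. Summed over the list, the level was 1615, 1607 and 1698 CPM at 0 h and 1923, 1911 and 2145 CPM at 24 h. With the lane term 1 rose and 1 fell. Mrpl39 rose from 24.0, 29.5 and 27.8 CPM to 57.6, 47.6 and 73.2 CPM (log2 fold change 1.14, adjusted p = 2.36e-05). Nuclear-encoded respiratory chain and ATP synthase subunits had 9 of 76 higher and 3 lower (0 and 5 with the lane term), and TCA cycle enzymes 8 of 39 higher and 6 lower (1 and 2). Of cytosolic aminoacyl-tRNA synthetases, 8 of 23 rose and 0 fell, with 2 higher under the lane term. Wars, the tryptophanyl-tRNA synthetase, rose from 66.2, 66.7 and 61.0 CPM to 191, 209 and 228 CPM, a log2 fold change of 1.70 (SE 0.15), and Kars rose by 1.02.

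Grouped by the letters of their symbols, families of at least 15 tested genes gave other views of the same response. Over all genes tested, 13.7% were higher and 12.9% lower, and family counts under the lane term are not given. Ifi genes had 12 of 15 higher, Tnfrsf receptors 8 of 17, Dusp phosphatases 7 of 20, Trim genes 13 of 41 and Clec lectins 5 of 18. In the same order 1, 2, 4, 5 and 2 members were lower. Ifi47, an immunity-related GTPase, rose by 4.82, the co-stimulatory receptor Tnfrsf9 by 3.19, the MAP kinase phosphatase Dusp1 by 1.36 and the Fc receptor Trim21 by 1.92. Clec4e, the mycobacterial glycolipid receptor Mincle, rose from 30.9, 44.3 and 29.5 CPM to 1146, 1400 and 1844 CPM. After Arhgap, the highest falling shares were those of Myo motors, 7 of 17, Snx sorting nexins, 9 of 29, Tbc genes, 8 of 30, and Smim genes, 4 of 15. Of these, 1, 5, 2 and 2 members were higher. Myo5a fell by 1.26 and the retromer partner Snx27 by 1.21. Of the 2 leading falling genes of each of these families, Snx5, Tbc1d16 and Smim13 lost their call with the lane term (adjusted p = 0.158, 0.0568 and 0.234). Myo1e, Myo5a, Snx27, Tbc1d8 and Smim14 kept theirs. Zfp zinc finger genes, the family with the most members tested, had 9 of 326 higher and 32 lower, and solute carriers, Slc, 36 of 210 higher and 39 lower. Pex peroxins, Snhg host genes and Trmt enzymes had 0 members called, of 16, 15 and 16.

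Called genes also lay side by side. Among 12596 tested genes with a position, there were 14 runs of at least 5 neighbours called in 1 direction, 10 higher and 4 lower, holding 83 genes. Most of the higher runs are clusters of families known to be induced by interferon. On chromosome 5 (105012513 to 105346476) the 6 genes Gbp8, Gbp9, Gbp4, Gbp10, Gbp6 and Gbp11 had a median of 5.37 with the 2 genes at 0 counts at their bound. On chromosome 3 (142496934 to 142638008) Gbp5, Gbp7, Gbp3, Gbp2b and Gbp2 rose with Mir6381, which lies within the bounds of Gbp2 so that their reads cannot be told apart. Gbp2b lost its call in fits that left out a library. On chromosome 18 Iigp1 and 4 neighbours had a median of 6.63.

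The run with the most genes, on chromosome 7 (104218795 to 104507853), held 8 Trim genes, from Trim6 to Trim30d, with a median of 1.84. There Trim30a rose from 60.8, 61.2 and 63.3 CPM to 277, 286 and 397 CPM, while Trim5 and Trim6 lost their call with the lane term, Trim6 also without 0 h replicate 3 or 24 h replicate 1. On chromosome 11 (82951349 to 83190216) 7 Schlafen genes rose with a median of 2.17, of which Slfn4 went from 3.73, 4.46 and 3.58 CPM to 216, 189 and 205 CPM. The Oas genes with Rph3a on chromosome 5 (120730333 to 121010116) had a median of 2.45. Oas1c and Rph3a lost their call with the lane term, Rph3a also without 0 h replicate 1 or 24 h replicate 3. On chromosome 17 (34153191 to 34216321), inside the major histocompatibility complex, the immunoproteasome subunits Psmb8 and Psmb9 rose by 2.24 and 2.47 and the peptide transporters Tap1 and Tap2 by 3.36 and 2.35. Next to them the class II chaperone H2-DMb1 was higher by 0.75, a call lost with the lane term.

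There were 4 falling runs. The one with the largest median fall, on chromosome 11 (114675468 to 114989886), had a median of -2.10 over 7 genes and includes Ttyh2, Gprc5c and the receptors Cd300a, Cd300lb and Cd300ld, of which Cd300ld, Kif19a and Btbd17 lost their call with the lane term. On chromosome 7 (99479563 to 99711340) Slco2b1 fell beside the beta-arrestin gene Arrb1, which went from 204, 210 and 208 CPM to 80.7, 83.5 and 62.7 CPM, with Tpbgl and 2 small nucleolar RNAs, Snord15a and Snord15b. Snord15a lost its call with the lane term and without 24 h replicate 3. The other 2 falling runs, Fblim1 to Ddi2 on chromosome 4 and Zfp367 to Prxl2c on chromosome 13, had medians of -0.72 and -0.86, and the lane term ended the calls of Tmem82, AI507597 and Rsc1a1 in the former and of Zfp367, Habp4, Cdc14b and 1810034E14Rik in the latter. The last 2 higher runs hold unlike genes. Agrn to Plekhn1 on chromosome 4, which includes Isg15, had a median of 1.68, and Nudt19 to Zfp507 on chromosome 7 one of 0.66. Agrn lost its call with the lane term, and of the second run Dpy19l3 alone kept its call under each alternative.

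**Figure D5:**
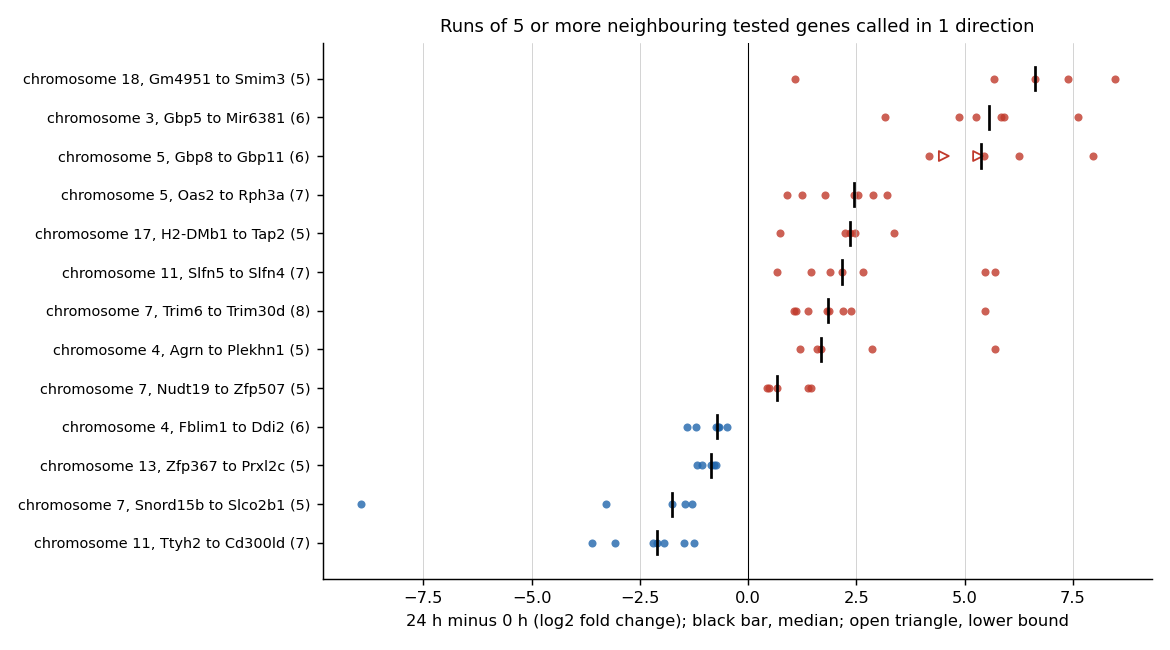
Each of the 13 rows is a run of at least 5 neighbouring tested genes called in 1 direction, with its chromosome, first and last gene and number of genes; points are the genes' 24 h minus 0 h log2 fold changes, open triangles the lower bounds of genes with no count at 0 h, and black bars the medians. The rows of guanylate-binding proteins and of the Iigp1 cluster lie farthest to the right, with medians of 5.37, 5.55 and 6.63.

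Set against the HFD samples, the chow response was not shown to differ for any gene. The interaction test called 0 genes (0.0% of those tested, edgeR), with a smallest adjusted p of 0.0805 and 297 genes at an unadjusted p under 0.05, while DESeq2 called 9 and limma-voom 0. A call of 0 does not show that the 2 diets respond alike: 1 of the HFD 0 h libraries held 2360209 counts, and the intervals are wide. Of the 3355 genes called in chow, 3330 had the same sign in HFD, where the 0 h and 24 h samples are separate libraries. The share of same signs over all genes tested is not given, so whether this agreement is particular to called genes was not tested. The smallest interaction p-values among named genes were those of Ccl5, with a log2 fold change of 4.20 in chow and 5.44 in HFD, and Cfb, with 4.88 and 6.26 (both adjusted p = 0.0805). Oas3 followed with 3.20 and 4.29 (adjusted p = 0.133). In these 3 genes the HFD value was the larger. Of genes described above, Acod1 rose by 6.35 in chow and 7.26 in HFD, Dnmt3a changed by -2.10 in chow and -2.09 in HFD, and Mamdc2 by -4.68 in chow and -4.09 in HFD.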

How the data were processed

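Per the labels' protocols, RNA was isolated on Qiagen RNeasy columns and NuGen Ovation Universal reagents were used for the libraries. CASAVA 1.8.2, STAR 2.5.2b and mm10 are named in the submitters' processing notes, while for the counter, its annotation and its strand setting the sources used here have no entry, so overlapping and antisense genes, and near-identical family members, cannot be told apart. The deposited values are raw counts for 35745 RefSeq transcripts in 12 columns. Of several transcripts of a gene the one with the largest mean count stood for it, giving 24558 genes, of which 6411 had no count. Identifiers without a symbol held 2.33% to 8.33% of chow totals and stayed in them.

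Counts of all 12 libraries were fitted in 1 model of 4 group means with edgeR 4.0.16 in R 4.3.3 (TMM, filterByExpr, robust quasi-likelihood), with Benjamini-Hochberg adjustment at 0.05. CPM used TMM-scaled totals and is not per length, so levels are not compared between genes as RNA per gene. The SE is the log2 fold change over the square root of F. Where a group held 0 counts, the fold is a lower limit computed with 3 counts in that group, and 1 to 3 counts give a ratio with an exact 95% interval, both for counting error only.

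The members, the 42 gene lists (2008 of 2009 entries matched, 1904 tested), the motifs and the tests were chosen with earlier results of these data known, and lists carry counts and medians with no test. Genes named were, first, the 15 largest fold changes each way (at least 10 CPM in the higher group, no overlap, no placeholder symbol, well-known cytokines left out). The 10 largest CPM changes each way were taken under the same overlap and symbol rules. To these came up to 3 members each way per list by adjusted p, the leading 2 genes of families, the runs and the genes at 0 counts, 352 in all. Some of these genes, with 1 list and 1 run, are not reported here. The markers of other cell types that are named, and the genes set beside HFD, were picked after their values were seen. Alternatives were DESeq2 1.42.0, limma-voom (limma 3.58.1), other size factors and filters, the lane, the replicate number, summed transcripts, chow alone and leaving out each library. Promoters are from a RefSeq table for GRCm38.p6, which matched 10033 tested genes.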

Additional observations from a re-analysis of the deposited data

How the results depend on the processing

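Of 5630 recomputed values of the 352 named genes under 16 alternatives, 242 lost their call and 1 changed sign: Pdcd5, at -0.05 with the lane term. With that term 1509 genes were called, 874 higher and 635 lower, against 3355, 1728 and 1627, and 110 named genes lost their call, 75 of them under no other alternative. Leaving out each library gave 2532 to 3036 called genes, 1291 to 1625 higher and 1241 to 1411 lower. Upper-quartile factors gave 1499 higher and 1862 lower and shifted the median of all genes by -0.064. The interaction had 0 calls, with 9 by DESeq2, 3 without a filter on low counts, 4 with the replicate block, and 0 to 3 when a chow library was left out. The main fit did not treat the replicate numbers as pairs. Deviations of same-numbered chow libraries correlated at 0.301, 0.091 and 0.346, and those of differently numbered ones at -0.308 to 0.109. Whether the numbers mark pairs was not tested. A block for the number gave 3711 calls. Folds of genes at few counts are limited by depth, with 3 counts equal to 0.201 to 0.268 CPM.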
